A study of Mus musculus with 8 samples.

Results

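Among 8787 fixed 1 kb windows of the mouse autosomes that held at least 20 measured cytosines and whose centre lay more than 5 kb from any transcription start site (TSS) of a curated RefSeq transcript, 1068 (12.2%) had a methylation level between 30 and 70% in each of the 8 samples. These intermediate dense windows away from promoters held 27998 of the 2130064 CpG cytosines measured on chromosomes 1 to 19, X and Y, with a median of 24 cytosines per window (range 20 to 131). The level of a window is the number of reads calling a cytosine methylated, summed over its cytosines, as a percentage of all reads there. Cytosines of both strands of a CpG were counted separately. The windows were selected on their measured levels in all 8 samples, so these levels are given as a description and carry no test. The windows nearest the bounds show how narrow the choice was. The lowest sample stood at 30.1% in a Man1c1 window just inside and at 29.98% in a window near Foxa2 just outside, and the highest sample at 69.98% in a Slit1 window just inside and at 70.01% in a window near Zmynd8 just outside.

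Type A spermatogonia are the mitotic germ cells that include the spermatogonial stem cells. The series compared cells sorted as such from F1 males of the C3H/HeN strain at postnatal day 6. Their mothers drank tap water (control group, 4 samples) or water with 85 ppm sodium arsenite (arsenic group, 4 samples) from gestational day 8 to 18. Cells were taken from testes with magnetic beads against CD49f, an integrin subunit of cells that touch a basement membrane, and each sample pooled 8 testes of 4 mice. Methylation was read by reduced representation bisulfite sequencing (RRBS), in which a restriction enzyme enriches CpG-rich fragments and bisulfite turns unmethylated cytosines into bases read as T.

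In mammalian somatic and male germ cell genomes most CpGs outside CpG islands carry methyl groups on nearly all DNA molecules, whereas CpG islands are mostly free of them. A level far from both ends is an average over molecules. It is known at imprinted control regions, where the alleles of the mother and the father differ, at enhancers bound by transcription factors, and in any tissue that mixes cell types. From bulk DNA, a share of cells with methylated copies and a partial level in every cell cannot be told apart.

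The study compared marker RNA of the sorted cells with that of its fetal germ cell fraction. It reports a predominant enrichment for type A spermatogonia. Its principal component analysis of methylation data also separated the sorted cells from the fetal germ cells and from sperm. From this the study proposes that the fractions were properly isolated. Here the label of the samples was checked against promoters whose state marks the germ line (from 1 kb upstream to 100 bases downstream of the TSS). Promoters of germline genes such as Dazl and Ddx4, which are free of methylation in germ cells and methylated in somatic cells, averaged 82.0% over the 12 of 14 that were covered (samples 79.97 to 84.8%). By gene they ranged from 60.7% (Tdrd1) to 94.9% (Dazl), with Ddx4 at 80.2%. Promoters of genes methylated on the maternal allele in somatic cells, which are unmethylated in male germ cells, averaged 51.5% over 12 of 18 (samples 48.2 to 54.5%). Of these 12, Grb10 stood at 3.20% (49 cytosines) and the others at 40.9 to 76.7%. At H19, whose upstream region male germ cells methylate, 4 cytosines averaged 66.3%. The groups overlapped on all 3 averages. These values are not those of pure germ cells, and the germline promoters lay nearer the methylated state given for somatic cells. The share of germ cells was not tested, so the windows are described for the sorted cells as collected. The part of other cell types in their intermediate levels was not tested. Coverage differed between samples, from 96428439 to 133406260 reads on cytosines and from 1014.5 to 1469 reads in the median intermediate window.

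Sequences of 5 of the windows, each 300 bases of the plus strand of GRCm38 (mm10) from RefSeq, are printed because they show the kinds of window the results turn on. In the first pair the capitals mark CpGs with a level over 50% (mean of the 8 samples), so that lower-case cg is a CpG at or below it. The first stretch is intergenic, at chr12:26955212-26955511 (10 of 13 CpGs over 50%, and 3 under 20%), in the window with the largest spread. The next lies in an intron of Srrm4, a splicing regulator of neurons, at chr5:116486590-116486889, where 4 CpGs under 20% are followed by 5 over 50%.
chr12 intergenic window: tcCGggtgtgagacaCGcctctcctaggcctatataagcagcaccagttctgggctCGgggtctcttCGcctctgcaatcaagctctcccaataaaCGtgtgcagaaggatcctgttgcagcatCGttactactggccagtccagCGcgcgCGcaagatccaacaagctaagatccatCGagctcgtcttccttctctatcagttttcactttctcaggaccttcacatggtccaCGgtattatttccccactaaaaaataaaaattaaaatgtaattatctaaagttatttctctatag
Srrm4 window: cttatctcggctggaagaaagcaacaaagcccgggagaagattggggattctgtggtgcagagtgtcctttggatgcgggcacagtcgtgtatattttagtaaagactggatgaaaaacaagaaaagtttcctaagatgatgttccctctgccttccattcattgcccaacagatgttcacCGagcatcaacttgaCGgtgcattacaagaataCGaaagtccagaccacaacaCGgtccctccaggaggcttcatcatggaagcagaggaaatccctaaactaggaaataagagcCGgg

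In the next pair the capitals mark every CpG that was measured, and all of them were intermediate. The stretch in an intron of Zdbf2, an imprinted gene expressed from the paternal allele, at chr1:63266214-63266513, has 12 CpGs between 37.9 and 56.5%. That in an intron of Ebf1, a transcription factor of the B cell lineage, at chr11:44833278-44833577, has 11 measured CpGs of 12, between 22.9 and 49.2%.
Zdbf2 window: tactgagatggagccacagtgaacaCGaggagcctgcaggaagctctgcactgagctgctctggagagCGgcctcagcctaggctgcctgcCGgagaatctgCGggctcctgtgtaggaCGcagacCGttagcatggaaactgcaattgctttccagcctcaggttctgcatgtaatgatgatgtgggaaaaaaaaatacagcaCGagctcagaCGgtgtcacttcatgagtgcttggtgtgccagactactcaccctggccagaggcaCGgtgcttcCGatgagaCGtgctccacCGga
Ebf1 window: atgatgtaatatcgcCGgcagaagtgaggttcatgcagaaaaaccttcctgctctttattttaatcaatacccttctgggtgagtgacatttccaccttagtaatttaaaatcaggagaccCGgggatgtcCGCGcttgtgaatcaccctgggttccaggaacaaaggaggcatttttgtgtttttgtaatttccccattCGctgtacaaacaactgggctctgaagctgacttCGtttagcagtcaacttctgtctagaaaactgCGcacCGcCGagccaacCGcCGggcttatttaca

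In the last stretch, in an intron of Slc39a10, a zinc importer, at chr1:46896601-46896900, the capitals mark the 2 of 9 measured CpGs whose mean was at least 5 points higher in the arsenic group. Of the 9, 7 were higher and 2 lower, and the largest difference was in a lower one, at 87.8% in the control and 77.4% in the arsenic group.
Slc39a10 window: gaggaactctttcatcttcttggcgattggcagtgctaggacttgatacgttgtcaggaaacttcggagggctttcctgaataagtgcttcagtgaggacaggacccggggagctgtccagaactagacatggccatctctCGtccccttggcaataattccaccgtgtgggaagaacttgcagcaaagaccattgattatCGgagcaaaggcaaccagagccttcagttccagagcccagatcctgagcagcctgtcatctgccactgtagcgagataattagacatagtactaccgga

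Cytosine levels were spread out within most intermediate windows. The standard deviation (SD) of cytosine levels within a window, each level first averaged over the 8 samples, had a median of 22.7 points (quartiles 18.3 and 27.6, range 4.23 to 43.3). It was 22.6 points after the variance expected from read counting was removed, so counting error made up little of it. Methylated windows away from promoters, over 70% in all samples, had a median SD of 7.63 points (5278 windows), and unmethylated ones, under 30%, of 3.14 points (1605 windows). Levels near an end leave less room for spread, and no test was made between these sets. The 421 intermediate windows within 5 kb of a TSS had a median SD of 23.2 points.

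**Figure D1:**
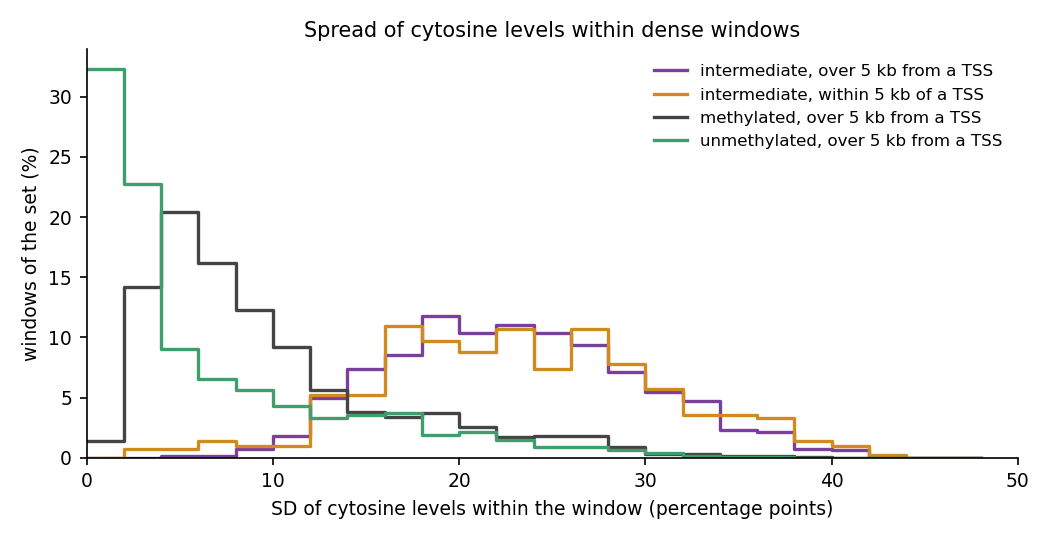
Share of windows (%) by the SD of cytosine levels within the window (percentage points, steps of 2), for intermediate windows over 5 kb from a TSS (n = 1068), intermediate windows within 5 kb (n = 421), methylated (n = 5278) and unmethylated windows (n = 1605). Both intermediate sets are broad, with medians of 22.7 and 23.2, and the other sets are highest below 10.

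Of the cytosines in the intermediate windows, 68.8% had a level of 20 to 80%, 14.0% were under 20% and 17.2% over 80%. In 858 windows (80.3%) at least 50% of the cytosines stood at 20 to 80%, and in 52 (4.87%) every cytosine did. In 644 (60.3%) at least 1 cytosine was under 20% and at least 1 over 80%, and in 70 (6.55%) each of these classes held at least 25% of the cytosines. The best single split of the window into a left and a right stretch took a median of 49.6% of the variance between cytosines, and at least 50% of it in 530 windows (49.6%). Its position was chosen to take the most variance, so it takes some in any window. The median was 27.0% in methylated, 39.3% in unmethylated and 54.45% in intermediate windows within 5 kb of a TSS. Both strands of a CpG differed by a mean of 4.98 points in the median window (1058 windows with CpGs read on both strands).

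Neighbouring CpGs were alike and distant ones were not. The levels of CpGs 1 to 10 bases apart differed by a median of 7.92 points (4905 pairs within 1 window), those 51 to 100 bases apart by 15.3 points (21195 pairs), and those more than 400 bases apart by 34.8 points (28351 pairs). The pairs share windows and libraries and are not independent. The order held over all 7 distance classes.

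**Figure D2:**
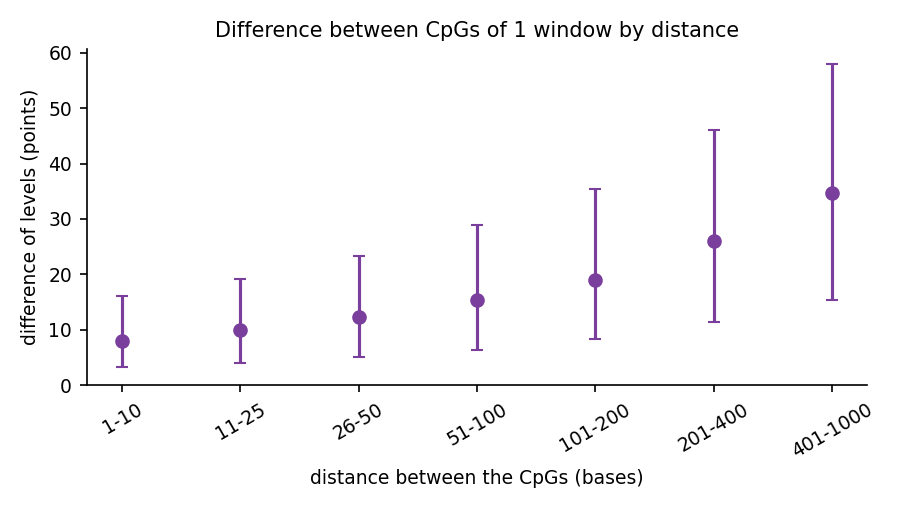
Median difference of levels between CpGs of the same window (points) with its quartiles, by their distance (bases). The median rises over the 7 classes from 7.92 to 34.8 points.

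The profile along a window was shared by the groups. The correlation across a window's cytosines between the mean of the control group and that of the arsenic group had a median of 0.958 and was over 0.9 in 896 of 1068 windows. Cytosines are not replicates, and within a window the points share their libraries, so this is a description. The median of the within-window SD, with counting variance removed in each sample, was 23.2 ± 0.374 points in the control group and 23.7 ± 0.166 in the arsenic group (SD, n = 4 each).

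The 6 windows of largest spread had SDs of 41.0 to 43.3 points. The largest was the chr12 window printed above (chr12:26955001-26956000, 120950 bases from the TSS of 4933409F18Rik), with 61.5% of its 39 cytosines over 80%, 35.9% under 20% and 2.56% between. Its window level was 61.9, 63.5, 60.6 and 65.5% in the control samples and 63.8, 63.8, 61.5 and 63.5% in the arsenic samples, which overlap. The others were intergenic windows at chr12:20105001-20106000, chr12:17443001-17444000, chr1:141019001-141020000 and chr2:99167001-99168000 and a window in an intron of Tmem51 at chr4:142067001-142068000. Repeat-masked bases made up 69.6% of the printed chr12 window, and from 16.3% (Tmem51) to 73.8% (chr1) across the 6 windows. The median over all intermediate windows was 11.3%. In these 6 windows 20 of 90 CpGs were read at under 2%. The mice were C3H and the reference genome is that of C57BL/6J, and a cytosine of the reference that is T in the mice is read as unmethylated. Over all intermediate windows, 429 of 17457 CpGs (2.46%) were under 2%, and for 124 of them, in 93 windows, the nearest measured CpGs on both sides were over 50%. Without these isolated CpGs, an exclusion chosen after seeing the data, 1018 windows met the rule, 1016 of them from the original set, with a median SD of 22.2 points. Whether the positions differ in sequence between the strains, or take reads from other copies of a repeat, was not tested.

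The 6 windows of smallest spread had SDs of 4.23 to 8.78 points and no cytosine under 20% or over 80%. The smallest was intergenic at chr17:6492001-6493000, near the pseudogene Tmem181b-ps, with a mean level of 63.6%. The Zdbf2 window (chr1:63266001-63267000, 6769 bases from the Zdbf2 TSS) had an SD of 4.82 points over 21 cytosines. Its level was 50.6, 45.6, 42.2 and 52.4% in the control samples and 54.5, 59.6, 52.9 and 44.1% in the arsenic samples. The groups overlapped (exact permutation test, two-sided, p = 0.20), and the spread between samples was larger than in most windows, at 4.63 points in the control group and 6.48 in the arsenic group against a median SD over all 8 samples of 3.06 points. The Ebf1 window (chr11:44833001-44834000, SD 7.38 points) is described with the group differences. The remaining 3 were intergenic near Grik3, which encodes a glutamate receptor subunit (chr4:125415001-125416000), intergenic near Jph4 (chr14:55157001-55158000), and in an intron of Cacng2, which encodes an auxiliary subunit of glutamate receptors (chr15:78082001-78083000). In the Grik3 window the samples ranged from 36.9 to 61.8%, both in the control group.

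**Figure D3:**
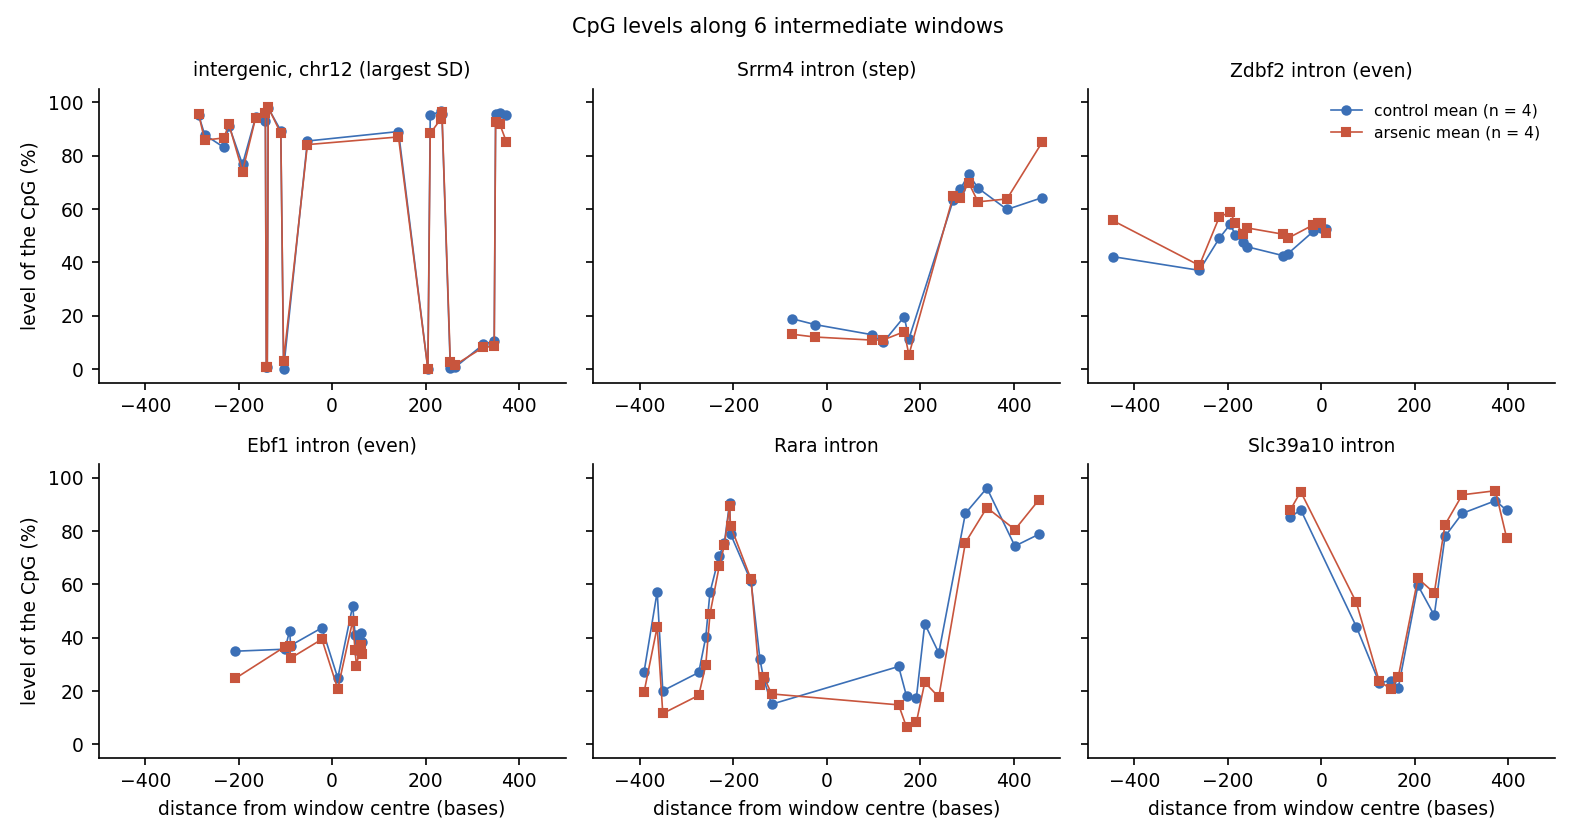
Level of each measured CpG (%) against its distance from the centre of the window (bases) in the 5 windows whose sequences are printed and in the Rara window, with the mean of the control samples (circles) and of the arsenic samples (squares), n = 4 each. The chr12 window alternates between levels under 11% and over 70%, the Srrm4 window steps up once, and the Zdbf2 and Ebf1 windows stay between 20 and 60%.

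The windows spread over all 19 autosomes, from 8.02% of the dense windows away from promoters on chromosome 6 to 15.3% on chromosome 8. By the position of the centre in curated RefSeq transcripts, 508 were intergenic (47.6%, 95% Wilson interval 44.6 to 50.6), 433 lay in introns (40.5%, 37.6 to 43.5), 83 in coding exons (7.77%, 6.31 to 9.53) and 44 in other exons (4.12%, 3.08 to 5.49). Of the methylated windows, 38.7% (37.4 to 39.99) lay in introns and 14.2% (13.3 to 15.2) in coding exons. Of the unmethylated ones, 27.1% (24.98 to 29.3) lay in introns and 60.8% (58.4 to 63.2) between genes. The intervals treat windows as independent, which neighbouring windows are not. The median distance to a TSS was 30954.5 bases (quartiles 13518 and 70995).

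Predicted and other transcripts place some of the windows nearer to a start. Of the 1068, 169 (15.8%) lay within 5 kb of a TSS when predicted RefSeq transcripts were counted, and 282 (26.4%) lay within 5 kb and 123 (11.5%) within 1 kb of a transcript start of GENCODE vM21.

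In base composition the intermediate windows lay beside the methylated ones. Their median GC content was 49.9%, against 49.6% in methylated and 54.4% in unmethylated windows. Their ratio of observed to expected CpGs was 0.382, against 0.406 and 0.537. The median share of repeat-masked bases was 11.3% (quartiles 6.2 and 20.025), against 18.5% (7.3 and 53.8) in methylated windows, and 30 intermediate windows (2.81%) were at least 50% masked.

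The neighbouring 1 kb windows, where at least 3 cytosines were measured, had a median level of 70.03% (733 windows, quartiles 44.6 and 83.1). For 125 windows both neighbours were measured. In 60 of these (48%) at least 1 neighbour was itself at 30 to 70%, in 32 (25.6%) both were over 70%, in 29 (23.2%) 1 was over 70% and 1 under 30%, and in 4 (3.2%) both were under 30%. For methylated windows both neighbours were over 70% in 68.5% of 556 cases.

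In all, 7 pairs of intermediate windows were adjacent, and the other 1054 windows had no adjacent window that met the rule. For 460 intermediate windows neither neighbour had at least 3 measured cytosines. The 5 pairs that come first by position lay near Syf2 and Runx3, the latter a transcription factor (from chr4:135025001-135026000), near Mir34a (from chr4:150043001-150044000), in an intron of Srrm4 (from chr5:116486001-116487000), near the pheromone receptor gene Vmn1r53 (from chr6:90232001-90233000) and near 4931429L15Rik (from chr9:46334001-46335000). The centres of the Vmn1r53 pair lay 288 and 684 bases from a GENCODE transcript start of Gm20426. Adjacent windows could differ in level. The Srrm4 pair had mean levels of 35.9 and 67.1%, and in the first of them the single split took 97.4% of the variance, with CpGs of 8.35 to 16.8% upstream and 61.8 to 74.8% downstream of it. The Mir34a pair had 66.9 and 64.2%.

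The centres of the windows lay in 498 genes. The 12 genes with 3 or more, named after their values were seen, were 2900026A02Rik and Man1c1, a mannosidase of the Golgi (4 each), and Camta1, Casz1, Cdh22, Chst8, Ebf1, Grik4, Prdm16, Tshz2, Ttc28 and Zmat4 (3 each). In Chst8 all 3 dense windows away from promoters were intermediate, in Man1c1 4 of 7, and in Camta1 3 of 17. In Ebf1, Camta1, Tshz2 and Ttc28 all 3 windows were lower in the arsenic group, with differences of -4.20 to -0.556 points in Ebf1 and -4.80 to -1.90 points in Tshz2, while in 2900026A02Rik 1 of 4 was lower, in Man1c1 3 of 4, and in each of the remaining 6 genes 2 of 3, where 60.96% of all 1068 windows were lower. The groups did not overlap in 2 windows of Zmat4 and in 1 window each of Camta1, Casz1 and Ebf1. Such windows made up 3.09% (lower) and 1.217% (higher) of the 1068, and 2.04% and 1.06% of all windows tested.

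The lists of genes chosen for their known roles had few dense windows away from promoters, of which 12.2% were intermediate over the whole set. In 63 imprinted genes 2 of 14 such windows were intermediate. These were Zdbf2 and Ano1, a chloride channel, at 65.8 ± 1.16% in the control and 66.3 ± 2.52% in the arsenic group (chr7:144712001-144713000, groups overlapping). In 9 genes of the methylation machinery it was 1 of 10, in Dnmt3a, a methyltransferase that sets new methylation (chr12:3867001-3868000, 67.0 ± 1.73 and 66.6 ± 2.54%). In 18 genes tied to prenatal arsenic or cancer it was 1 of 7, in the growth factor receptor gene Igf1r (chr7:67964001-67965000, 65.3 ± 2.86 and 62.8 ± 1.43%). The centre of the Dnmt3a window lay 1310 bases from a GENCODE transcript start of Dnmt3a. Spermatogonial genes (27 genes, 11 dense windows), testis somatic markers (35 genes, 2 windows), developmental transcription factors (71 genes, 31 windows), protocadherins (58 genes, 1 window), germline promoter genes (14 genes, 2 windows) and maternally methylated genes (18 genes, 3 windows) had none.

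The arsenic group stood slightly lower on average. The mean level of the 1068 windows was 52.94, 52.94, 53.17 and 52.88% in the control samples and 52.81, 52.19, 52.02 and 52.40% in the arsenic samples. Every arsenic sample was below every control sample, the closest being at 52.81 and 52.88%, and the means were 52.98 ± 0.129 and 52.35 ± 0.342% (SD, n = 4 each), a difference of -0.625 points. The groups overlapped on the median level of the same windows, where control sample 4 and arsenic sample 4 both stood at 53.64%, and its group means were 53.9 ± 0.208 and 53.2 ± 0.446%. Over the same samples the difference was -0.0368 points in methylated windows, -0.331 in unmethylated windows and -0.496 in intermediate windows within 5 kb of a TSS, with overlapping groups in each. These differences were not tested against one another.

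**Figure D4:**
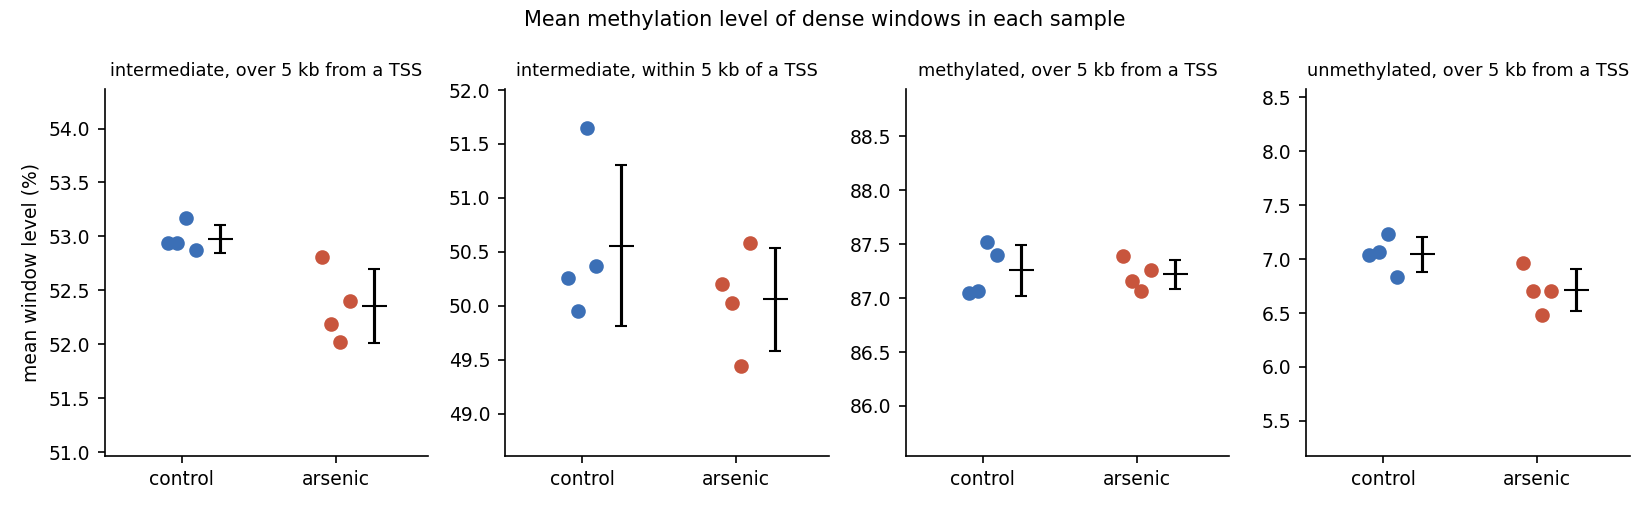
Mean window level (%) of each sample (points) with the mean and SD of each group (bars, n = 4) in 4 sets of dense windows, each axis spanning the same number of points. In the intermediate windows over 5 kb from a TSS the highest arsenic sample lies at 52.81% and the lowest control sample at 52.88%, and in the other sets the groups overlap.

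The difference was spread thinly over the windows. It was below 0 in 651 of 1068 (60.96%), where 56.4% of all 198209 windows tested and 55.5% of all dense windows away from promoters were below 0. The median was -0.64 points (quartiles -2.23 and 0.847), against -0.284 in all windows tested and -0.162 in all dense windows away from promoters. The range was -9.71 to 10.9 points. At least 5 points separated the groups in 49 windows (4.59%), against 7.87% of all windows tested and 2.09% of all dense windows away from promoters. Windows with a mean level of 30 to 40% had a median difference of -1.18 points (124 windows, 73.4% below 0), those of 40 to 50% of -1.03 (277 windows, 62.8%), those of 50 to 60% of -0.453 (381 windows, 57.7%) and those of 60 to 70% of -0.364 (286 windows, 58.0%). In the lowest class the control samples averaged 37.4 to 37.96% and the arsenic samples 36.4 to 36.96%, without overlap, as in the class of 50 to 60% (55.2 to 55.6% and 54.5 to 55.1%). The groups overlapped in the classes of 40 to 50% and 60 to 70%. By context, 51 of 83 windows in coding exons, 267 of 433 in introns and 308 of 508 between genes were below 0. By spread, the median difference was -0.736 points in the 356 windows of lowest SD, -0.583 in the middle 356 and -0.649 in the 356 of highest SD.

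No single window passed the test. By logistic regression of the summed counts with an overdispersion-scaled F test, 0 of 1068 windows were called lower and 0 higher in the arsenic group with the threshold set at an adjusted p (Benjamini-Hochberg q) of 0.01 and a difference of 10 points or more, and the share called among all windows tested was 0% in both directions. At an unadjusted p under 0.05, 54 were lower (5.06%) and 21 higher (1.97%), where 3.02% and 1.49% of all windows tested, and 3.71% and 2.07% of the dense windows away from promoters, were. With limma 0 were called, and 10 were lower and 4 higher at an unadjusted p under 0.05, where 3.43% and 1.92% of all windows tested, and 2.07% and 1.47% of the dense windows away from promoters, were. A likelihood-ratio test that takes reads as the only source of error called 0 lower (0.321% of all windows tested) and 1 higher (0.15% of all windows tested and 0.0114% of the dense windows away from promoters). That window, named after its values were seen, lay 267755 bases from the Nr2f2 TSS (chr7:70634001-70635000), with 46.7 ± 3.51% in the control and 57.8 ± 9.41% in the arsenic group, which overlap, at 276 to 546 reads. The groups did not overlap in 33 windows that were lower (3.09%) and 13 that were higher (1.217%), against 2.04% and 1.06% of all windows tested and 2.31% and 1.34% of the dense windows away from promoters. In the median window the variance between samples of a group was 4.44 times that of read counting alone, and 4 samples against 4 cannot give an exact p under 0.0286.

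Of the windows with the lowest p that were lower without overlap, 2 lay in introns of Micall1 and Rara. Neither passed the adjusted test (q = 0.977 in each, F test). In Micall1, an endocytic adaptor gene (chr15:79131001-79132000), the control samples stood at 46.9, 45.2, 49.5 and 46.5% and the arsenic samples at 40.2, 40.5, 41.1 and 42.6%, with unadjusted p = 0.00159 (F test), the value by which the window was chosen. The centre of this window lay 186 bases from a GENCODE transcript start of Micall1. In Rara, which encodes the retinoic acid receptor alpha (chr11:98971001-98972000, 6629 bases from its TSS) the control samples stood at 52.3, 55.1, 52.9 and 50.5% and the arsenic samples at 49.2, 45.2, 46.6 and 44.6%. The evenly intermediate Ebf1 window also did not overlap, at 38.4, 38.2, 37.1 and 40.5% in the control samples and 34.2, 35.1, 31.8 and 36.3% in the arsenic samples, with q = 0.977.

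The 3 windows with the lowest p that were higher without overlap lay in an intron of Slc39a10, in a non-coding exon stretch of Stc2 and near Selenok, again with q = 0.977. The centre of the Slc39a10 window (chr1:46896001-46897000) lay 379 bases from a GENCODE transcript start of Gm28527. In Slc39a10 the control samples stood at 49.6, 51.4, 51.1 and 52.8% and the arsenic samples at 57.1, 56.1, 55.5 and 57.6%. In Stc2, which encodes a secreted glycoprotein (chr11:31359001-31360000), they stood at 49.8, 49.5, 48.7 and 48.3% and at 54.6, 52.5, 55.8 and 52.2%. The window near Selenok, a selenoprotein of the endoplasmic reticulum (chr14:29937001-29938000), stood at 63.4, 62.2, 62.1 and 63.6% and at 66.97, 65.6, 65.5 and 65.2%.

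**Figure D5:**
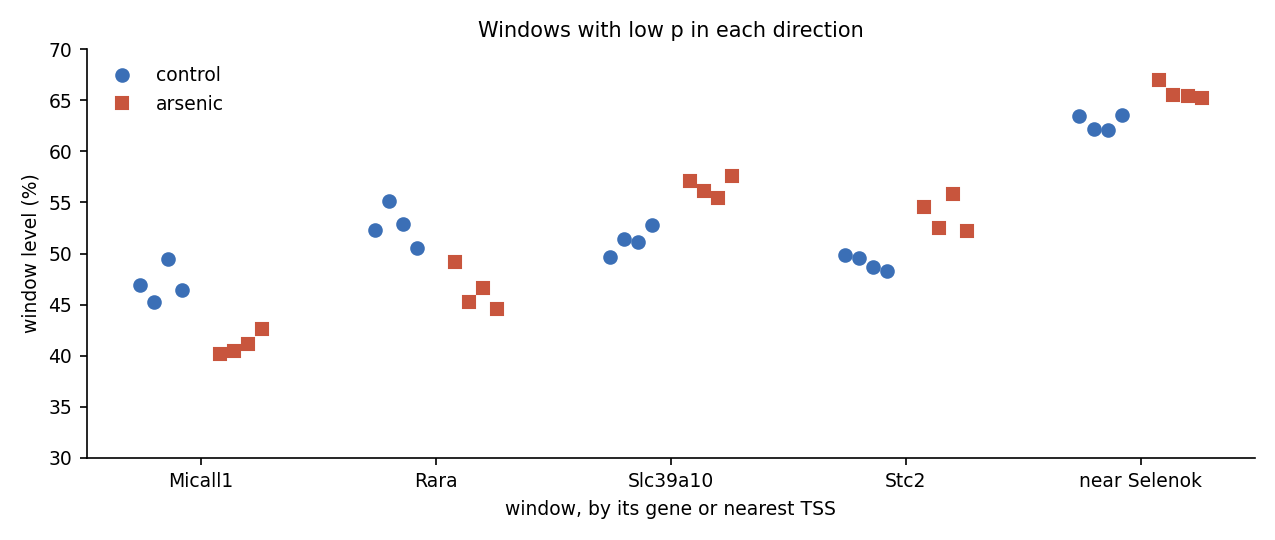
Window level (%) in each control sample (circles) and each arsenic sample (squares) for 2 windows that were lower and 3 that were higher, with low p and no overlap, none of which passed the adjusted test. The lower ones are in Micall1 and Rara, and in each of the 5 windows all arsenic samples lie on the same side of all control samples.

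Single cytosines were called in both directions. With the likelihood-ratio test per cytosine (q of at most 0.01 and at least 10 points, which makes a differentially methylated cytosine, DMC), 166 of 27998 cytosines were hypoDMCs, lower in the arsenic group (0.593%, against 0.323% of all cytosines and 0.383% of those in dense windows away from promoters), and 123 were hyperDMCs (0.439%, against 0.229% and 0.321%). Intermediate cytosines are called more often everywhere, and among cytosines of 20 to 80% the shares were 0.623% (120 of 19253) against 0.589%, and 0.488% (94) against 0.358%. With the spread between samples taken into account by the F test, 0 cytosines were called, and at an unadjusted p under 0.05 2.24% were lower and 1.46% higher, where 2.25% and 1.62% of all cytosines, and 2.32% and 1.88% of those in dense windows away from promoters, were. The DMCs lay in 220 windows (20.6%, against 15.3% of all dense windows away from promoters), with both directions in 14 (1.31%, against 0.706%) and 3 or more DMCs in 15 (1.40%, against 0.717%).

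Of these 15, named after their values were seen, an Hcn2 window in a coding exon had most, with 6 hypoDMCs (chr10:79735001-79736000, a pacemaker channel gene). It stood at 67.2, 65.6, 69.2 and 67.4% in the control samples and 55.2, 58.9, 61.03 and 66.5% in the arsenic samples, so the last of these lay inside the control range. Rara and Micall1 had 4 hypoDMCs each. Sarm1, an enzyme that breaks down NAD in injured axons, had 3 hyperDMCs in a coding exon window (chr11:78483001-78484000), at 47.8, 47.0, 51.05 and 42.9% in the control samples and 55.7, 55.6, 54.1 and 54.0% in the arsenic samples, without overlap. The window in Foxo6, a forkhead transcription factor, held 1 hypoDMC and 3 hyperDMCs, and its group means were 36.8 ± 4.70 and 36.0 ± 0.454%.

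Of the windows, 2 near each other at chr2:98662001-98663000 and chr2:98666001-98667000 were read 1707629 to 2599191 times per sample, where no other window passed 20000. Their levels were 58.9 ± 0.662 and 59.3 ± 0.284%, and 58.0 ± 0.545 and 58.1 ± 0.214%, in the control and arsenic groups. Reads of repeated copies elsewhere that align there cannot be told apart from those of the locus.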

How the data were processed

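RRBS libraries of 8 samples were sequenced by the authors. Per the labels and the study's methods, reads were trimmed with Trim Galore 0.6.5, aligned to mm10 with Bismark 0.22.3 and combined with methylKit 1.22.0. The table the authors deposited gives, for each CpG cytosine and sample, raw counts of reads with C and with T, with at least 10 reads in every sample; 1541 cytosines on other sequences were not used. Counts were summed per 1 kb window, starting at position 1. All 198209 windows with at least 3 cytosines were tested by logistic regression with an overdispersion-scaled F test and Benjamini-Hochberg adjustment, and by limma 3.58.1 (R 4.3.3) on log2 of (methylated + 1)/(unmethylated + 1). Scripts ran in Python 3.11.15 with scipy 1.17.1, and the tests were tested on simulated data. TSS and gene context came from curated RefSeq transcripts of GRCm38, where 99.98% of the cytosines lie in a CG.

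The windows and gene lists were chosen with earlier results of these data known. Windows named were the 6 of largest and of smallest SD, the 3 of lowest p without overlap per direction, 5 runs of adjacent windows, windows in listed genes and those at the bounds; 1 of these windows and the sequence of another are not reported here, and others are said to be named after their values were seen. Samples are separate pools of mice. The study states a limit on testes per dam for its fetal pools and does not give the litters of the pools used here. Whether samples of a group share litters is not known. No sample pair differed less than others (chi-square per cytosine 1.97 to 2.08), so none was counted as a duplicate. Intervals cover counting error only, and reads without molecular identifiers are not independent molecules.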

Additional observations from a re-analysis of the deposited data

Results flagged for a closer look

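Of 88 groups of 4 values checked for a sample far from the others (Dixon's test at its 95% level), 1 passed, where chance alone gives about 1 in 20. In the intergenic chr12 window of largest spread, 1 arsenic sample stood at 61.53% and the other arsenic samples at 63.51 to 63.80%.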

How the results depend on the processing

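The difference of the mean level was below 0 in all 19 settings tried that gave one (-0.777 to -0.405 points). With 1 sample left out it was -0.777 to -0.512 points. Its direction could not change there, as every arsenic sample was below every control sample. The other settings used the same 8 samples. Of the 21 settings in which windows were tested, the likelihood-ratio test called 1 window higher and the others called none in either direction. The median SD was 22.6 to 22.8 points with 1 sample left out, and the hypoDMCs and hyperDMCs numbered 148 to 190 and 102 to 140. With at least 20 reads per cytosine, 347 windows met the rule, with a median SD of 22.4 points, 77 hypoDMCs, 49 hyperDMCs and 32.6% in introns. With bounds of 35 and 65% there were 661 windows, an SD of 23.2 points and 81 hyperDMCs. With at least 30 cytosines there were 246, with 23.2 points, 65 and 37 DMCs and 37.0% in introns. With both strands summed there were 205, 34.6% of them in introns. Unweighted window levels gave an SD of 23.1 points, and leaving out isolated CpGs under 2%, chosen after seeing the data, 22.2. The F test per cytosine called 0 hypoDMCs and 0 hyperDMCs. Fewer cytosines or windows pass each stricter rule by its construction, and the cause of the other shifts was not tested.

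Same-numbered samples of the groups did not deviate together (correlations of -0.00376 to 0.0139 over dense windows), so the numbers do not pair them. With the replicate block, 0 windows were called lower and 0 higher, and 48 had an unadjusted p under 0.05 (4.49%, against 2.52% of all windows tested). Depth limits the shallow windows most: 96 of the windows had under 500 reads in some sample.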
